A study of Mus musculus with 28 samples.

Results

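The regions described here carried acetylated lysine 27 of histone H3 (H3K27ac) in most libraries of 3 groups of mouse lung adenocarcinoma cells and in no library of the resistant cells labelled Res. Overlapping peaks of all 12 H3K27ac lists were merged into 32703 regions. A region was kept where 0 of 3 Res libraries and at least 7 of the 9 libraries of the other groups had a peak. This left 1598 regions (4.89% of all), called Res-missing regions from here on. The absence of their H3K27ac from Res is what chose them, so it is given as a description, with no test.

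The study profiled H3K27ac and H3K9ac (acetylated lysine 9 of the same histone) by chromatin immunoprecipitation and sequencing, with 3 biological replicates per group and mark. Sen cells were wild-type cells sensitive to blockade of the immune checkpoint receptor PD-1. Res cells were wild-type, resistant, and labelled as treated with PD-1 inhibitors. Res_Ctrl cells were resistant cells labelled as control, and Res_shFabp7 cells were resistant cells with a short hairpin RNA knockdown of Fabp7, a fatty acid binding protein; the labels of neither of these groups mention the inhibitor. Res therefore differed from the other resistant groups by that label as well as by the hairpin, and these cannot be told apart. The strain, the clones and the hairpin vectors were not given in the sources used here. The lists held 15856 to 28934 H3K27ac peaks and 11771 to 18317 H3K9ac peaks per library, and among those of H3K27ac, Sen library 1 was set apart by the fewest peaks and 2.24 M tags (M, 1e6) in peaks against 3.70 to 10.5 M in the others. Of the markers of epithelial tumour cells, Krt8 and Krt18 had peaks of both marks in all 24 libraries, Cdh1 in all but 1 Res_Ctrl library of H3K27ac, and Epcam in 1 H3K27ac library, a Res one, and in 4 H3K9ac libraries, 2 of them Res. The lung genes Sftpc and Foxa2 had peaks of both marks in all libraries and Nkx2-1 in 0. Of 8 markers of immune cells, fibroblasts and endothelium, 6 had no peak in any library, while Col1a1 had peaks in every group and Dcn an H3K27ac peak in 1 Res library.

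H3K27ac is laid down by the acetyltransferases p300 and CBP and marks active promoters and enhancers, the distal elements that raise transcription of a gene from a distance. H3K9ac is placed mainly by the GCN5 and PCAF enzymes and is strongest at active promoters. Enhancers differ far more between cell states than promoters do, and many mammalian promoters that are active in most tissues are rich in CpG dinucleotides, while promoters used in few tissues often are not.

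Sequences of 4 promoters inside Res-missing regions show the range of CpG content that the set covers. Each is the stretch before an annotated start of the gene, 250 bases on the coding strand, from RefSeq's promoter windows (GRCm38.p6, the mm10 assembly). At Csf1 and Anxa10 this is the outer start of the gene. The starts used for H6pd and Samd5 lie inside the outer gene ends (chr4:149979474-150009023 and chr10:9262461-9675926), so these stretches do not describe the outermost promoters. In the first 3, CpG dinucleotides are in capitals. Csf1, which encodes macrophage colony-stimulating factor (chr3:107760470-107760719, minus strand, 10 CpG), and Samd5, a gene of a sterile alpha motif protein (chr10:9675209-9675458, minus strand, 35 CpG), are shown because their H3K9ac stayed in Res. H6pd, the hexose-6-phosphate dehydrogenase of the endoplasmic reticulum (chr4:150003237-150003486, minus strand, 3 CpG), is shown because its region had the highest mean H3K27ac of those that hold a whole window of the promoter table. In Anxa10, a gene of the annexin family (chr8:62123194-62123443, minus strand), the capitals mark 2 copies of TGANTCA, the motif bound by AP-1 factors, and the stretch holds 1 CpG.
Csf1: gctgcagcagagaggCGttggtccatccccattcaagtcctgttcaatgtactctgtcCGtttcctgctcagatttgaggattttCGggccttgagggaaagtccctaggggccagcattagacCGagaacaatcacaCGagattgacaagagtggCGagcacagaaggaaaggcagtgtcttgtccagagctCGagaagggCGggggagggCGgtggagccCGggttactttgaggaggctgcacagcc
Samd5: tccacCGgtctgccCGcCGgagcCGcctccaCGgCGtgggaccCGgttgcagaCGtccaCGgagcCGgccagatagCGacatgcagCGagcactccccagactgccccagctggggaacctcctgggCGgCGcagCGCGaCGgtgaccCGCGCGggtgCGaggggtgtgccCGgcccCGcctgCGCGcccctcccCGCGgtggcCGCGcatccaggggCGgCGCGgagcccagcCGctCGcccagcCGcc
H6pd: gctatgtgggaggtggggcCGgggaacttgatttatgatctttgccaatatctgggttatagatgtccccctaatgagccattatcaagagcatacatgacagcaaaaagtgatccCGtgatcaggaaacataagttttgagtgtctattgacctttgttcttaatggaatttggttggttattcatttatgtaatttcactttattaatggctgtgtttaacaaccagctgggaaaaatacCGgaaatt
Anxa10: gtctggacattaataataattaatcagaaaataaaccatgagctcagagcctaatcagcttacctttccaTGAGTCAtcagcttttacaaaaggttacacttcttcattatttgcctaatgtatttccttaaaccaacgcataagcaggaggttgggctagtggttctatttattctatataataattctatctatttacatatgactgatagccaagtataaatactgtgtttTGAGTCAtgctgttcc

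Of all promoter windows in the RefSeq table (300 bases, from 250 before to 50 after the start), 93 windows of 83 genes lay wholly inside a Res-missing region. Windows of 17491 protein-coding genes entered, so not every gene is covered, and chromosome 18 was not analysed here for promoters. They held a median of 7 CpG. Windows inside any merged H3K27ac region held 22, and the median over the whole table was 13. The share with 10 or more CpG was 38.7% in Res-missing regions (36 of 93), against 87.3% in all regions with a window and 56.8% of all windows. The promoters of Csf1 and Samd5 shown here belong to that CpG-rich minority and those of H6pd and Anxa10 do not. The set included the keratins Krt23, Krt78 and Krt79, the cornified envelope gene Sprr1a and the intestinal genes Lgals4, Cdhr2 and Alpi. It also held the lipid droplet gene Cidec and the oncogene Mycn. All of these names were picked from the list after it was seen. In the gene lists given further on, 0 of 12 epithelial and 0 of 14 lung endoderm genes had a Res-missing region within 1 kb.

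Each motif was searched on both strands of the 300-base windows. The AP-1 motif TGANTCA was in 12.9% of windows in Res-missing regions (12 of 93), in 5.07% of windows in any region and in 6.99% of all windows. The GC box GGGCGG was in 44.1%, 67.8% and 46.2% in that order, and the ETS motif CCGGAAG in 6.45%, 20.0% and 11.6%. For the E-box CACGTG the shares were 4.30%, 10.4% and 7.84%, and for CCAAT 29.0%, 37.9% and 38.2%. TATAAA was in 10.8%, 6.26% and 12.6%, the motif TTCNNNGAA in 8.60%, 6.48% and 7.69%, and TGTTTAC in 3.23%, 2.44% and 3.01%. The cyclic AMP response element TGACGTCA was in 2.15%, 3.35% and 2.23%, and the NRF1 motif, a palindrome, in 0%, 2.34% and 1.33%. The windows in Res-missing regions thus held GC boxes, E-boxes, CCAAT, ETS, NRF1 and TGACGTCA motifs at lower shares than windows in all regions, and the AP-1 motif, TATAAA, TTCNNNGAA and TGTTTAC at higher shares. Their base composition differed too, with a median GC content of 56.3% against 62.0%. The part of base composition in these shares was not tested. A match is a description of letters and says nothing of binding.

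Res-missing regions also held 3 miRNA genes, and 2 of these lay in a single region over an end of Atg2a, a lipid transfer gene of autophagy (chr19:6261359-6266060). Mir192 and Mir194-2 are transcribed together and are known from intestinal, liver and kidney epithelium. Their main mature forms are shown with the seed, bases 2 to 8, in capitals. The seeds differ, so the miRNAs fall into separate families.
miR-192-5p: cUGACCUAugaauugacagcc
miR-194-5p: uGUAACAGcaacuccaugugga
The region around them had 163, 148 and 134 scaled H3K27ac tags in the Sen libraries 1 to 3, 110, 149 and 126 in Res_Ctrl and 131, 127 and 127 in Res_shFabp7, and no peak in Res. H3K9ac there was 177, 161 and 159 in Sen, 168, 146 and 137 in Res_Ctrl and 158, 160 and 148 in Res_shFabp7, and again Res had no peak. The 9 libraries with a peak thus lay close together in both marks.

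Scaled tags are the authors' tag counts per 1e6 tags in regions that have a peak in all 12 libraries of a mark (11679 regions for H3K27ac and 10149 for H3K9ac), after TMM scaling. Over Res-missing regions the mean over libraries with a peak ran from 13.9 to 307, with a median of 34.7. Of the 1598 regions, 520 had a peak in all 9 libraries outside Res, 569 in 8 and 509 in 7. Peaks at these regions were called in 730, 1563 and 1477 of them in the Sen libraries 1 to 3, in 1430, 1332 and 1547 in Res_Ctrl and in 1522, 1596 and 1598 in Res_shFabp7. The first Sen library, with the fewest peaks, is the low one. Without it in the rule, and with 1 peak fewer required, 2180 regions would qualify.

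How far a missing peak reflects a low count cannot be read from the lists, since a region without a peak has no deposited count. The lists do show which counts were called. At its mean level in the other groups, a Res-missing region would have exceeded the 10th percentile of tags among called peaks for 1572 of 1598 regions in the first Res library, 1464 in the second and 1471 in the third. It would have exceeded the median peak for 533, 392 and 394 regions. The mean level covers only libraries with a peak and sums all peaks of a region, while the percentiles are of single peaks. Both tend to raise these counts. Res libraries held 19811 to 22252 H3K27ac peaks, within the range of the others. With the same number of peaks taken from each list, 1079 regions met the rule.

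The same rule with another group in the place of Res found 578 regions missing only from Sen, 229 missing only from Res_Ctrl and 12 missing only from Res_shFabp7. With equal numbers of peaks per library these counts were 379, 150 and 132, against 1079 for Res. Without the first Sen library they were 588, 443 and 26, against 2180. That setting also asked for fewer other libraries with a peak, except in the count for Sen. Res had the highest count in each of these 3 settings. The opposite pattern, a peak in 3 of 3 Res libraries and in at most 2 of the 9 others, was found at 1153 regions.

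Around the threshold, the highest regions with exactly 7 of 9 peaks lay in Litaf, a gene of an endosomal membrane protein (mean 122 scaled tags), and in Golph3l, a Golgi gene (109). At both, 2 of 3 Res_Ctrl libraries had no peak. At Litaf the second Res_Ctrl library had 20.5 scaled tags, against 118 to 192 in Res_shFabp7. There were 696 regions that failed because 1 Res library had a peak. The highest of these, at Ttc39b, had 657 scaled tags in the second Res library and none called in the others, against a mean of 293 outside Res. The next had 13.7 in the first Res library and a mean of 178 outside Res (chr2:180340660-180348480). Another 683 regions had 0 of 3 Res and only 6 of 9 others. The highest of these, in Cacna2d3 and at chr4:89122525-89129800, had peaks in all 3 Res_Ctrl and all 3 Res_shFabp7 libraries and in no Sen library, with means of 131 and 119.

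The 10 Res-missing regions with the most H3K27ac were led by a region over an end of Myrf, which encodes a membrane-bound transcription factor known from myelin-forming cells (chr19:10231149-10241449). Its scaled tags were 378, 348 and 382 in Sen, 264, 244 and 275 in Res_Ctrl and 275, 296 and 299 in Res_shFabp7. All Sen libraries lay above all others there. In Res_Ctrl against Sen it fell (log2 change of -0.46 ± 0.08 SE, edgeR adjusted p = 0.0054). Its lowest peak score, 1860 (the log10 of the p-value times -10), was also the highest lowest score of any Res-missing region, followed by Atg2a (870), H6pd (705), the Ifne-side region of chromosome 4 (573) and Glis3, a zinc finger transcription factor gene (566). H3K9ac at Myrf was 240 to 323 in the 9 other libraries, and 1 Res library had a peak of 19.1.

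Other regions of the top 10 stood at or near Csf1, Oca2, Rbpms, Rasgrp3 and Gcnt3, and 4 lay in a single stretch of chromosome 4. The region 10357 bases from Oca2, a melanosomal transporter gene (chr7:56546875-56559109), had 98.2, 164 and 173 scaled tags in Sen, 298, 319 and 344 in Res_Ctrl and 277, 292 and 307 in Res_shFabp7. Inside Rbpms, an RNA-binding protein gene (chr8:33894615-33907797), the values were 114, 139 and 132 in Sen, 251, 226 and 250 in Res_Ctrl and 183, 209 and 188 in Res_shFabp7. At both regions every Sen library lay below every library of the hairpin groups, and Res had none called. In Res_Ctrl against Sen both rose, Oca2 by 1.16 ± 0.17 and Rbpms by 0.92 ± 0.10 (edgeR adjusted p = 0.0025 and 9.2e-04). Per called base these changes were 0.44 and 0.49, both past the threshold. Tests merge the peaks of their 6 libraries only, so the tested stretch can be shorter than the region, as at Rbpms. At Rasgrp3, a Ras exchange factor gene (chr17:75468584-75478424), 2 Sen libraries had 195 and 202 scaled tags, within the range of 185 to 223 of the hairpin groups, and the first Sen library had 86.1. Gcnt3, which branches mucin O-glycans (chr9:70030693-70038871), had 129 to 160 in Sen, 183 to 199 in Res_Ctrl and 177 to 185 in Res_shFabp7. The Sen libraries lay below the others at Gcnt3.

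**Figure D1:**
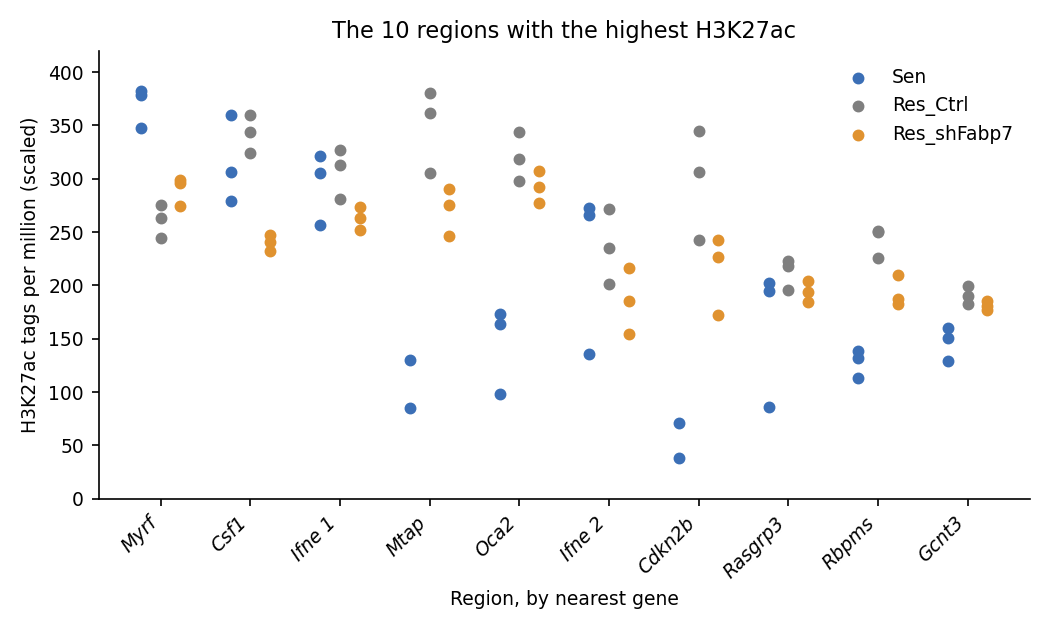
H3K27ac at the 10 Res-missing regions with the highest mean (x axis, by nearest gene), in scaled tags (y axis), 1 point per library with a peak, coloured by group. No Res point exists because Res had no peak at any of them; Sen lies above the other groups at Myrf and below them at Mtap, Oca2, Cdkn2b, Rbpms and Gcnt3.

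H3K9ac was measured in separate libraries that the rule did not use. H3K9ac peaks overlapped 486, 639 and 607 of the 1598 Res-missing regions in the Sen libraries 1 to 3 (30.4 to 40.0%) and 537, 854 and 712 in Res_shFabp7 (33.6 to 53.4%). In Res they overlapped 11, 24 and 19 (0.688 to 1.50%). In Res_Ctrl they overlapped 116, 186 and 455 (7.26 to 28.5%). The Res libraries were thus the lowest, with no overlap with any other group, and Res_Ctrl lay between, with library 3 near Sen. The same shares over all 32703 regions were 44.4 to 47.5% in Sen, 36.5 to 39.5% in Res, 33.9 to 45.8% in Res_Ctrl and 46.6 to 51.9% in Res_shFabp7. Over all regions, the first Res_Ctrl library lay below every Res library. Regions missing only from Res_Ctrl had H3K9ac peaks in 3.06 to 16.6% in Res_Ctrl and in 19.7 to 29.3% in the other groups. For regions missing only from Sen the shares were 18.0 to 20.4% in Sen and 20.9 to 49.5% in the other groups. In those sets too, the libraries of the missing group were the lowest in H3K9ac.

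**Figure D2:**
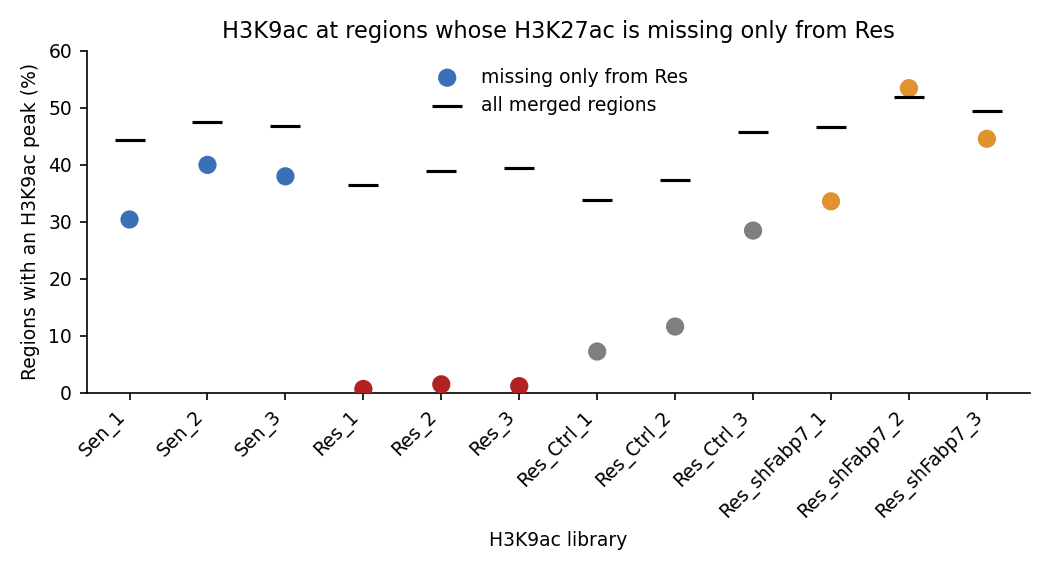
Share of regions with an H3K9ac peak (y axis, percent) in each of the 12 H3K9ac libraries (x axis). Coloured points are the 1598 Res-missing regions and black bars all 32703 merged H3K27ac regions; the 3 Res points lie between 0.688 and 1.50%, under their bars at 36.5 to 39.5%.

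H3K9ac was called in 3 of 3 Sen and 0 of 3 Res libraries at 390 Res-missing regions (24.4%), where the background over all merged regions was 5.95%. In 3 of 3 Res_shFabp7 and 0 of 3 Res libraries it was called at 450 (28.2%, background 7.21%), and in 3 of 3 Res_Ctrl and 0 of 3 Res at 86 (5.38%, background 1.17%). The reverse, H3K9ac in 3 of 3 Res and 0 of 3 of the other group, was found at 0 Res-missing regions against each group, with backgrounds of 1.12% for Sen, 0.936% for Res_Ctrl and 0.648% for Res_shFabp7. These contrasts share the Res libraries. In regions that missed the rule by 1 Res peak, the shares were 20.7% for Sen, 25.9% for Res_shFabp7 and 4.17% for Res_Ctrl. The H3K9ac pattern therefore did not stop at the threshold of the rule.

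Counted by region, 1570 of 1598 (98.3%) had no H3K9ac peak in any Res library, 20 had one in 1 or 2 and 8 in all 3. Over all 32703 regions these shares were 58.4% with none, 6.46% with 1 or 2 and 35.2% with all 3. In at least 1 of the 9 other libraries 1072 had an H3K9ac peak (67.1%, against 56.6% of all regions), and 526 had none in any of the 12 (32.9%, against 41.8%). The Res libraries of H3K9ac held 12684 to 13782 peaks, fewer than Sen and Res_shFabp7 and within the range of Res_Ctrl (11771 to 16217). With 11771 peaks taken from each list, H3K9ac peaks overlapped 9, 8 and 5 Res-missing regions in Res, 116, 115 and 115 in Res_Ctrl, 150, 171 and 170 in Sen and 146, 138 and 149 in Res_shFabp7. Res stayed lowest and the difference among the other groups shrank. Of the 178 Res-missing regions within 1 kb of a gene end, H3K9ac peaks in Res overlapped 4.49, 11.8 and 8.43%, against 57.3 to 64.0% in Sen, 25.3 to 52.8% in Res_Ctrl and 59.6 to 73.6% in Res_shFabp7. Of the other 1420 they overlapped 0.211, 0.211 and 0.282% in Res and 27.04 to 36.97% in Sen. The shares there were 5.00 to 25.4% in Res_Ctrl and 30.4 to 50.9% in Res_shFabp7. Res was the lowest group at both kinds of Res-missing region. Over all merged regions within 1 kb of a gene end, the shares were 81.91 to 84.35% in Res and 86.31 to 87.59% in Sen. Over all those farther away they were 14.51 to 17.76% in Res and 24.05 to 27.98% in Sen. The first Res_Ctrl library lay below every Res library at both positions over all regions (77.9 and 12.58%).

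By the same rule applied to the H3K9ac lists, 1392 of 20543 merged H3K9ac regions (6.78%) were missing only from Res. Of these 228 overlapped a Res-missing H3K27ac region (16.4% of the H3K9ac set), and 224 Res-missing H3K27ac regions overlapped one (14.0%). The H3K9ac sets missing only from Sen, Res_Ctrl and Res_shFabp7 held 152, 156 and 7 regions.

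H3K9ac tags could be tested only where all 6 libraries of a comparison had a peak, so few Res-missing regions qualified. In Res against Sen 8 were tested with edgeR's quasi-likelihood test. H3K9ac rose at 2, both at Csf1, and fell at 5 (adjusted p under 0.05), where 28.1% of all 11185 tested regions rose and 26.4% fell. In Res against Res_shFabp7 2 of 8 rose and 5 fell (backgrounds 26.5% and 24.0% of 11396), and in Res against Res_Ctrl 1 of 6 rose and 3 fell (22.4% and 21.3% of 10300). These 3 comparisons share the Res libraries. The regions could be tested because H3K9ac was called in Res, so their counts say nothing of the regions that had no such test. Without the first Res library more regions could be tested, and 10 of 16 fell against Sen, 8 of 17 against Res_shFabp7 and 7 of 11 against Res_Ctrl. Of all regions tested then, 2719 of 11643, 2635 of 11908 and 1933 of 10502 fell. Against Sen 3 of 8 fell without the second Res or without Sen library 2 or 3 (2553 of 11299, 2230 of 11225 and 2279 of 11222 of all). Against Res_shFabp7 3 of 8 fell without the second Res or the first Res_shFabp7 library (2426 of 11532 and 2237 of 11487 of all).

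At Csf1, a cytokine gene that drives the growth and survival of macrophages (gene at chr3:107741048-107760469), both Res-missing regions kept H3K9ac in all Res libraries while H3K27ac was not called. The region over the gene start (chr3:107754441-107761599) had 128, 148 and 155 scaled H3K27ac tags in Sen, 177, 181 and 172 in Res_Ctrl and 135, 113 and 111 in Res_shFabp7. Its H3K9ac was 310, 297 and 302 in Res against 146, 174 and 172 in Sen, 185, 157 and 171 in Res_Ctrl and 118, 124 and 117 in Res_shFabp7. All 3 Res libraries lay above all 9 others. H3K9ac rose in Res against Sen by 0.86 ± 0.07 (SE; edgeR adjusted p = 1.1e-06), against Res_Ctrl by 0.83 ± 0.07 (1.2e-06) and against Res_shFabp7 by 1.32 ± 0.05 (3.9e-09). A tag count grows with the length of the call, and per called base these changes were 0.59, 0.28 and 0.34, all past the threshold.

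The second region covers the far end of Csf1 and the sequence past it (chr3:107731185-107745917). Its H3K27ac was 306, 279 and 359 in Sen, 344, 360 and 325 in Res_Ctrl and 241, 248 and 232 in Res_shFabp7, second only to Myrf among Res-missing regions. Its H3K9ac was 360, 327 and 307 in Res, 28.1, 108 and 112 in Sen, 70.1, 78.1 and 79.0 in Res_shFabp7, and 47.6 and 128 in 2 Res_Ctrl libraries, with no peak in the first. H3K9ac rose by 1.55 ± 0.27 in Res against Sen and by 1.95 ± 0.10 against Res_shFabp7 (edgeR adjusted p = 5.9e-04 and 3.5e-08), and per called base by 0.81 and 0.91. Res H3K27ac peaks lay on either side. One ended 443 bases from the second region in the second Res library, and all 3 Res libraries had a peak beyond the gene start at about chr3:107765147-107770298. In Res_shFabp7 against Res_Ctrl, H3K27ac fell at the region past the gene by 0.50 ± 0.07 and at the gene start by 0.56 ± 0.10 (edgeR adjusted p = 0.0062 and 0.015). The second of these calls was lost per called base (-0.20), without the second Res_Ctrl library (-0.53), without the second or the third Res_shFabp7 library (-0.51 and -0.49) and with peaks of score 100 or more (-0.49).

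**Figure D3:**
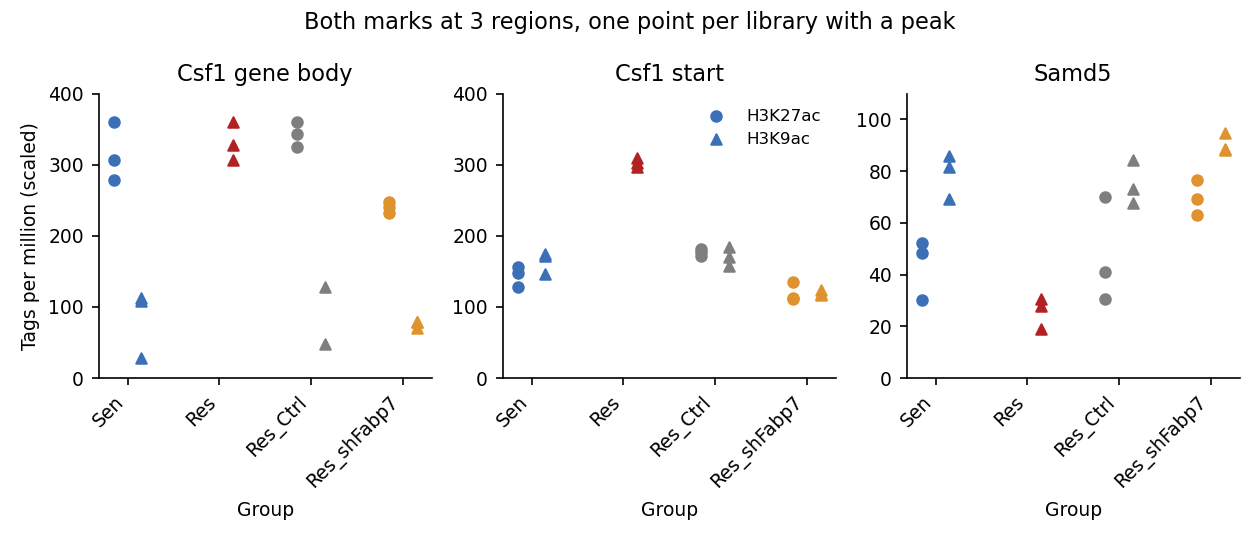
Scaled tags (y axis) of H3K27ac (circles) and H3K9ac (triangles) in each group (x axis) at both Csf1 regions and at Samd5, 1 point per library with a peak. Res has H3K9ac points but no H3K27ac points in each panel; at Csf1 they lie at 297 to 360 and at Samd5 at 18.8 to 30.6.

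Samd5 went the other way in H3K9ac (chr10:9672915-9677912, over the gene start). Scaled H3K9ac was 30.6, 27.7 and 18.8 in Res, 69.3, 85.9 and 81.8 in Sen, 72.9, 67.8 and 84.1 in Res_Ctrl and 94.9, 88.4 and 88.1 in Res_shFabp7. Every Res library lay below every other. H3K9ac fell in Res against Sen by 1.66 ± 0.15 on the log2 scale (edgeR adjusted p = 2.6e-06), and against Res_Ctrl by 1.56 ± 0.17. Against Res_shFabp7 it fell by 1.84 ± 0.13. Per called base these changes were -0.51, -0.56 and -0.40, still past the threshold.

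Of the other regions with H3K9ac in all Res libraries, Shroom4, Exoc4 and Nbdy had mean H3K27ac of 24.4, 17.5 and 15.9 scaled tags, under the median of the set, and Litaf had 122. At Shroom4, a cytoskeletal gene of the X chromosome, H3K9ac was 16.9 to 20.5 in Res and 35.9 to 43.6 in Sen on the scale of that comparison and fell by 1.14 ± 0.14 (edgeR adjusted p = 3.9e-05). At Exoc4, a gene of the exocyst that tethers secretory vesicles, it was 19.0 to 21.8 in Res and 30.7 to 32.0 in Sen and fell by 0.62 ± 0.13 (0.0017). Per called base the changes at Shroom4 and Exoc4 were -0.43 and -0.36, both past the threshold. At Nbdy, which encodes a small protein of mRNA-decapping bodies, it fell by 0.38 ± 0.13 (0.025), a call lost with DESeq2 (0.079), per called base and without Res library 2 or either of Sen libraries 2 and 3. At Litaf it fell by 0.58 ± 0.19 (0.022), where the first Res library had 63.8 and the others 33.3 and 32.5 against 60.9 to 64.5 in Sen. The Litaf call was lost without Res library 2 or 3 (-0.43 and -0.41) and without Sen library 2 or 3 (-0.56 and -0.55), and per called base the change turned to 0.16. Rp2, a gene linked to retinal degeneration, did not pass against Sen (-0.46 ± 0.19, 0.055).

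By position, most Res-missing regions lay away from gene ends, many of them inside genes. An annotated end of a protein-coding gene stood within 1 kb of 178 (11.1%), against 32.7% of all merged regions and 63.3% of regions with a peak in all 12 libraries. More than 10 kb from any gene end lay 1045 (65.4%, against 49.0% of all regions). The median distance was 19.4 kb, against 9.36 kb, and 889 (55.6%) lay within a gene's outer ends, against 66.5%. Their median width was 3139 bases, against 2642. Regions missing only from Sen had a gene end within 1 kb at 150 of 578, those missing only from Res_Ctrl at 42 of 229, and regions present only in Res at 158 of 1153. The table used here gives outer ends only, so exons and introns are not told apart.

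Single regions were the rule. Runs of neighbouring Res-missing regions with no Res H3K27ac peak between them were counted: 1075 stood alone, 158 runs had 2 regions, 39 had 3, 10 had 4 and 7 had 5 or more. The nearest Res H3K27ac peak lay within 1 kb of 50 regions, at 1 to 5 kb from 268, at 5 to 25 kb from 602, at 25 to 100 kb from 433 and farther from 245. By chromosome, Res-missing regions made up 2.56% of the regions of chromosome 11, the lowest share, 2.76% on X and 6.91% on chromosome 18, the highest.

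The longest run held 14 regions on chromosome 4 (chr4:87982415-89525790). It lay in a stretch of 5.78 Mb with no Res H3K27ac peak (chr4:87555499-93334313), which holds 44 protein-coding genes, among them the type I interferon cluster with Ifnb1 and Ifne, Mtap, which salvages methylthioadenosine, and Cdkn2a and Cdkn2b, inhibitors of cyclin-dependent kinases. H3K27ac peaks in the stretch numbered 10, 29 and 25 in the Sen libraries 1 to 3, 26, 28 and 27 in Res_Ctrl, 30, 30 and 35 in Res_shFabp7 and 0 in each Res library. H3K9ac peaks numbered 18, 18 and 19 in Sen, 19, 22 and 26 in Res_Ctrl, 22, 22 and 20 in Res_shFabp7 and 0 in each Res library. Of the 42 merged H3K27ac regions in the stretch, 21 had a peak in 3 or fewer of the other libraries. Past chr4:89529942, H3K27ac peaks outside Res lay only at chr4:92554296-92556392 and chr4:92777672-92778974, each in 1 library. Most of the H3K27ac that Res lacked there thus lay before that point. Res had no peak of either mark over the whole stretch. Whether Res cells carry this sequence was not tested. Without the 14 regions of the run 1584 remain, so the stretch makes up a small part of the set.

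**Figure D4:**
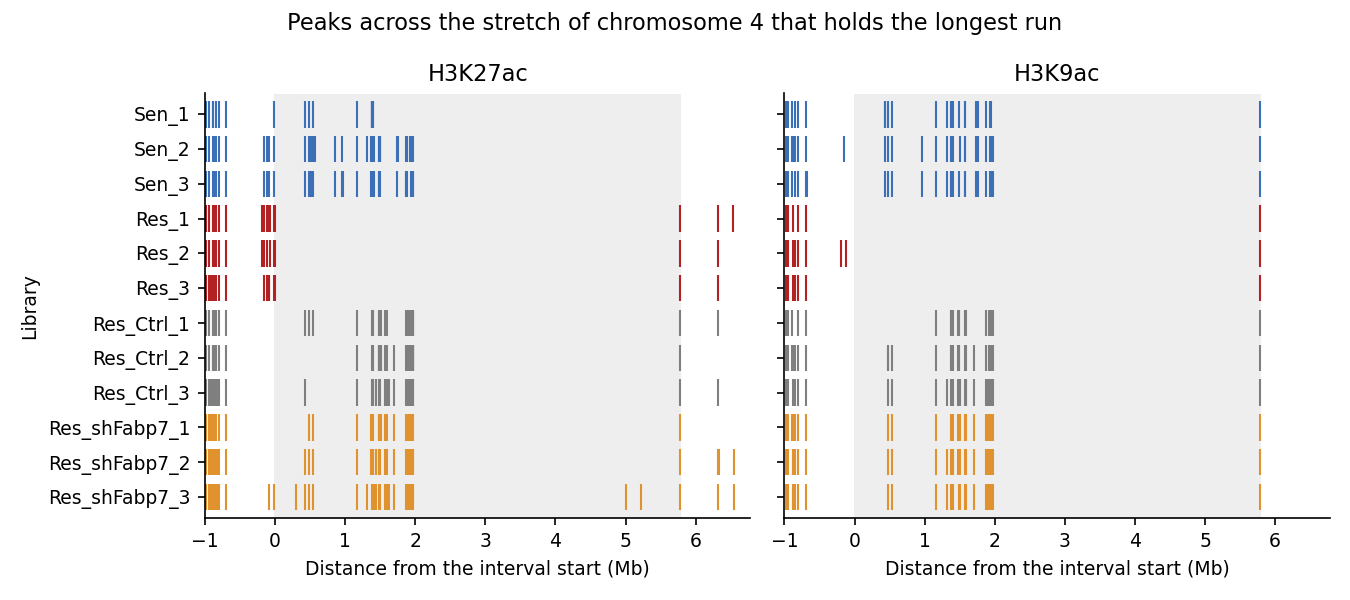
Peaks of both marks in each library (y axis, 1 row per library) across the stretch of chromosome 4 that holds the longest run, by distance from its start in Mb (x axis); each tick is 1 peak and the grey area is the stretch of 5.78 Mb. The Res rows are empty inside it and have H3K27ac peaks on both sides.

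Within the run, the groups with peaks differed in where they were high. The region 46946 bases from Ifne (chr4:88927147-88943971) had 257, 322 and 306 scaled H3K27ac tags in Sen, 313, 281 and 327 in Res_Ctrl and 264, 252 and 273 in Res_shFabp7. These groups overlapped. The region 74109 bases from Mtap (chr4:89046900-89063261) had no peak in the first Sen library and 130 and 85.0 in the others, against 305, 381 and 362 in Res_Ctrl and 246, 275 and 290 in Res_shFabp7. The region 163420 bases from Cdkn2b (chr4:89474452-89490003) had 70.9 and 38.1 in the same 2 Sen libraries, 243, 306 and 345 in Res_Ctrl and 173, 227 and 243 in Res_shFabp7. From Mtap on, 8 of the 14 regions lacked a peak in the first Sen library and were lower in Sen than in either hairpin group. The regions at the start of the run, in Mllt3, a reader of acetylated histones, and Focad were not low in Sen. At Focad the Sen libraries had 29.3, 31.0 and 26.4, Res_Ctrl 13.9 in its first library and no peak in the others, and Res_shFabp7 14.4, 17.9 and 17.2. Sen lay above both hairpin groups there.

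In Res_shFabp7 against Res_Ctrl, where 2.53% of all 16235 tested regions fell, 11 of the 14 could be tested, and 2 fell. These neighbour each other on the side of Dmrta1 (-0.70 ± 0.16 each, edgeR adjusted p = 0.034 and 0.035); both calls were lost without the second or the third Res_Ctrl library or the first or the second Res_shFabp7 library. The log2 change was below 0 at all 11. With the replicate block, where 5.78% of all tested regions fell, 6 others fell too. These were both Ifne-side regions (-0.21 and -0.34, edgeR adjusted p = 0.040 and 0.010) and both Mtap-side regions (-0.41 and -0.35, 0.0088 and 0.0081). The Cdkn2b-side region at chr4:89474452-89490003 (-0.47, 0.0038) and the last Dmrta1-side one (-0.45, 0.027) fell as well. Per called base, without the block, these 6 changed by -0.04 to -0.22 and none passed. The 2 calls made without the block stayed per called base (-0.24 and -0.30).

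The next runs held 7 regions each, and the longer ones are described. The first lay between Podxl and Plxna4, an axon guidance receptor gene (chr6:31615743-32588856), with 12.9 to 99.1 scaled H3K27ac tags and 1 H3K9ac peak in Res, over an end of Plxna4 (14.2 scaled tags in the second library). The other lay between Mdm1 and Dyrk2 (chr10:118169732-118810785), with a region 126385 bases from Ifng, the gene of interferon gamma, that had 19.5 to 37.9 scaled tags.

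The groups that keep these regions can be compared with each other on measures outside the rule's contrast. In Res_shFabp7 against Res_Ctrl, which asks what the Fabp7 hairpin changes, 1131 Res-missing regions had peaks in all 6 libraries. H3K27ac rose at 50 (4.42%) and fell at 35 (3.09%), with a median log2 change of 0.02, where 1.32% of all 16235 tested regions rose and 2.53% fell (edgeR, adjusted p under 0.05). With the replicate number as a block, 87 rose (7.69%) and 74 fell (6.54%), against 3.09% and 5.78% of all. The counts rested on single libraries. Without the second Res_shFabp7 library 8 rose and 18 fell (0.251% and 0.778% of all), and without the third 10 and 11 (0.256% and 0.743%). Without the second Res_Ctrl library 34 of 1317 rose and 10 fell, where 121 and 126 of all 17507 tested regions did. Per called base 22 rose and 127 fell, where 2.47% of all tested regions rose and 5.56% fell.

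Among the regions that fell, 1 lay 181621 bases from Zfp703, a transcriptional repressor gene (chr8:26793065-26795715). On the scale of this comparison it had 15.4, 17.1 and 14.9 CPM (tags per 1e6 tested tags) in Res_shFabp7 and 40.7, 52.1 and 38.6 in Res_Ctrl, a fall of 1.47 ± 0.18 (edgeR adjusted p = 0.0033), and the groups did not overlap. A region 96483 bases from Sp3, a gene of a GC-box-binding factor, fell by 1.23 ± 0.19 (0.0073). The regions in Vps13d, a lipid transfer gene (-1.25 ± 0.22), in Gse1 (-1.24 ± 0.21) and 6309 bases from Sik2, a salt-inducible kinase gene (-1.24 ± 0.21), also fell. Per called base the changes of Zfp703 and Sp3 were -0.85 and -0.70, both past the threshold. The calls of the last 3 genes were lost without 1 library: that of Vps13d without the second Res_Ctrl (-1.0) or the third Res_shFabp7 library (-1.11) and with peaks of score 100 or more (-1.13), that of Gse1 without the third Res_shFabp7 library (-1.20) and that of Sik2 without the second Res_Ctrl library (-1.16).

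Of the regions that rose, 1 lay 7645 bases from Cldn4, a tight junction gene (chr5:134954579-134960267). It had 42.4, 60.7 and 49.8 in Res_shFabp7 and 18.4, 17.6 and 23.6 in Res_Ctrl and rose by 1.36 ± 0.19 (edgeR adjusted p = 0.0048). A region in Fhit, a gene at a fragile site, rose by 1.32 ± 0.20 (0.0072), and one 2455 bases from Dnaaf6 by 1.31 ± 0.18 (0.0051). Regions 1672 bases from 1700012P22Rik (1.26 ± 0.23) and over an end of D630003M21Rik (1.24 ± 0.21) rose as well. The groups did not overlap at Cldn4. Per called base, the changes of Cldn4, Fhit and Dnaaf6 were 0.01, 0.02 and 0.31 and did not pass, and that of D630003M21Rik turned to -0.06. The change of 1700012P22Rik per called base was 0.36, still past the threshold. Without the second or the third Res_shFabp7 library the calls of 1700012P22Rik and D630003M21Rik were lost.

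**Figure D5:**
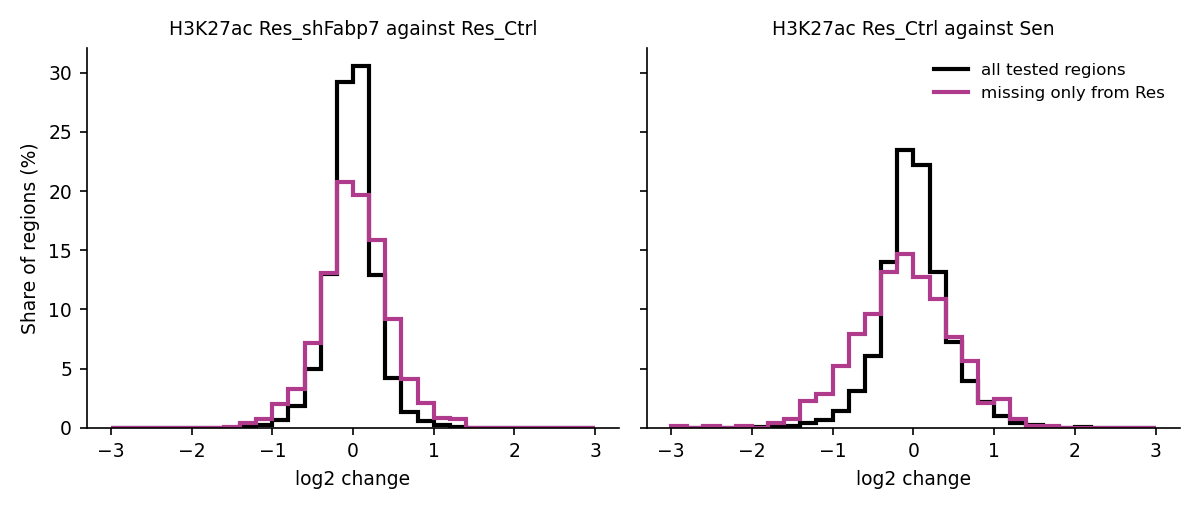
Share of tested regions (y axis, percent) by log2 change of H3K27ac (x axis, bins of equal width) for Res-missing regions and for all tested regions, in Res_shFabp7 against Res_Ctrl (left) and Res_Ctrl against Sen (right). Both sets centre near 0, and the Res-missing regions spread more widely on either side.

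In Res_Ctrl against Sen, which sets resistant cells with the control label against sensitive ones, 529 Res-missing regions could be tested. H3K27ac rose at 47 (8.88%) and fell at 90 (17.0%), with a median log2 change of -0.09, where 9.76% of all 13130 tested regions rose and 7.30% fell. The first Sen library limits this test, because a region must have a peak there. Without it 1037 Res-missing regions were tested, and 157 rose and 182 fell, where 11.5% of all 15742 regions tested then rose and 10.3% fell. Both H3K27ac comparisons share the Res_Ctrl libraries, so a region low or high in Res_Ctrl appears in both.

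The lowest Res_Ctrl values relative to Sen were in Gpr55, a receptor for lysophosphatidylinositol (chr1:85951913-85961595). It had 158, 208 and 186 CPM in Sen and 30.4, 23.3 and 17.6 in Res_Ctrl, a fall of 2.95 ± 0.19, or 7.74-fold (edgeR adjusted p = 1.4e-04), and of 0.62 per called base. Its Res_shFabp7 libraries had 66.6 to 72.5 scaled tags, between the other groups. In Res_shFabp7 against Res_Ctrl it did not pass (0.72 ± 0.21, 0.083) and passed with the replicate block (0.75, 0.036). Of the pair of regions in Oxr1, an oxidation resistance gene, one fell by 2.54 ± 0.23 and the other by 2.10 ± 0.17, and that in Xkr9 by 1.70 ± 0.25. A region 108442 bases from Haao, which encodes an enzyme of tryptophan breakdown, fell by 1.70 ± 0.16. Per called base the Oxr1, Xkr9 and Haao regions changed by -0.85, -0.71, -0.47 and -0.33, all past the threshold. In Res_shFabp7 against Res_Ctrl, the Oxr1 and Xkr9 regions were at 1.21 ± 0.23, 0.84 ± 0.18 and 1.17 ± 0.22. Those 3 rises were lost without the second or the third Res_shFabp7 library, that of Xkr9 also without the second Res_Ctrl library and the smaller Oxr1 one without the third, and per called base, where they were 0.19, 0.07 and 0.20.

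Above Sen in Res_Ctrl stood a region 127361 bases from Phlda1, a pleckstrin-homology gene induced by growth signals (chr10:111636010-111641655). It had 18.1, 32.8 and 43.1 CPM in Sen and 87.0, 97.7 and 112 in Res_Ctrl and rose by 1.62 ± 0.25 (edgeR adjusted p = 0.0027). A region 225905 bases from the homeobox gene Irx3 rose by 1.43 ± 0.23, one in Prdm16, a zinc finger regulator of brown fat, by 1.28 ± 0.15, and one in Pitpnc1, a phosphatidylinositol transfer gene, by 1.26 ± 0.18. The region in Tnfaip2, a TNF-induced gene, rose by 1.4 ± 0.35 (0.022), a call lost with DESeq2 (0.051) without any 1 of the Res_Ctrl libraries (0.71 without the second) and without Sen library 3. Per called base the other 4 changed by 0.50, 0.38, 0.44 and 0.35, past the threshold. At each of these 5 regions the Res_Ctrl libraries all lay above the Sen libraries.

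The series' title names ferroptosis, a form of cell death driven by oxidised membrane lipids, and proteins that bind fatty acids. Few genes of the lists on these and other subjects had a Res-missing region. Of 11549 protein-coding genes with any merged H3K27ac region within 1 kb of an end, 193 (1.67%) had a Res-missing one. In the ferroptosis list 1 of 31 genes did, Aifm2, which encodes FSP1, a coenzyme Q reductase that protects membranes from lipid peroxidation. In the list of cytokines and checkpoint ligands 2 of 17 did, Csf1 and Csf2, the gene of granulocyte-macrophage colony-stimulating factor. The lists of fatty acid handling (14 genes with a region), epithelial identity (12), lung endoderm (14), mesenchymal and matrix (10), antigen presentation and interferon response (26), the circadian clock (16), fibroblast and endothelial (4), immune cell (3), neural and glial (4) and housekeeping genes (17) had 0.

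The Aifm2 region (chr10:61713978-61716286, over a gene end) had no peak in the first Sen library and 31.2 and 28.8 scaled H3K27ac tags in the others, 32.1, 28.4 and 31.0 in Res_Ctrl and 20.2, 21.8 and 23.6 in Res_shFabp7. Res_shFabp7 was the lowest of the groups with a peak. The change against Res_Ctrl was -0.47 ± 0.18 and did not pass (edgeR adjusted p = 0.17). Its H3K9ac was 23.0, 29.4 and 27.6 in Sen, 35.8, 31.3 and 17.6 in Res_Ctrl and 26.3, 27.4 and 19.6 in Res_shFabp7, with no peak in Res. The Csf2 region (chr11:54248137-54251134) had 30.5 and 24.9 in 2 Sen libraries, 49.4, 54.3 and 36.2 in Res_Ctrl and 30.5, 27.3 and 25.8 in Res_shFabp7. Its change of -0.74 ± 0.19 between the hairpin groups did not pass either (0.055), and passed with the replicate block (-0.72, 0.030). Its H3K9ac was 11.9, 22.5 and 18.7 in Sen, 11.4, 13.4 and 10.7 in Res_shFabp7 and 17.1 in 1 Res_Ctrl library, with no peak in the other Res_Ctrl libraries or in Res. No Res library had a called peak of either mark at these 2 regions, and at Csf2 the missing H3K9ac peak was shared with most of Res_Ctrl. In bulk samples such as these, fewer cells with a mark and less of the mark per cell cannot be told apart.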

How the data were processed

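Values of the 24 immunoprecipitated libraries among 28 samples entered, 3 per group and mark; the 4 inputs were left out. The submitters' processing notes name Bowtie 1.1.2, MACS 1.4.2 and mm10; no source used here says how duplicates or inputs were handled. Reads were single, of 50 bases, and numbered 53 to 158 M per sample, per the labels, which give fixation as 1% formaldehyde, 10 min. Each library has its own list, so the authors did not call peaks on pooled replicates. The deposited tag count of a peak is a whole number, not scaled to depth. The deposited score is the log10 of the p-value times -10, at least 50.0. The fold that the authors deposited is a ratio to background, used only within a list. Tags in peaks (2.24 to 11.5 M) are not depth, and counts cover called peaks only. None of 24 pairs of lists within a group shared an identical peak. Labels call the samples biological replicates; p-values measure the spread between them.

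Regions were peaks merged where they overlapped by 1 base or more. Each test used regions with a peak in all 6 libraries of its comparison and edgeR's quasi-likelihood fit on tag counts (version 4.0.16 under R 4.3.3), with libraries scaled by TMM and p-values adjusted by Benjamini-Hochberg over all regions tested (threshold 0.05). Changes are log2 of the first group over the second ± SE. The procedure was tested on simulated counts with 200 changed regions. Positions refer to 21775 protein-coding genes of RefSeq's GRCm38.p6 table. The sample titles number the replicates and state no pairing across groups, so the block by replicate number is an alternative only. For H3K27ac in Res_shFabp7 and Res_Ctrl, deviations from group means correlated in all 3 same-numbered pairs (r = 0.358, 0.128 and 0.232). Res_shFabp7 library 2 correlated more with Res_Ctrl library 3 (0.154). In the other comparisons at least 1 same-numbered pair was under 0.1. For H3K27ac in Res_Ctrl and Sen these values were 0.322, 0.0925 and 0.187.

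The regions, the 12 gene lists and the rules were chosen with earlier results of these data known. Named regions were the 10 highest in scaled tags, the 5 highest in their lowest score, the largest changes past the threshold per comparison and direction, regions with H3K9ac in all Res libraries, the 3 longest runs, list genes and those next to the threshold. Alternatives were other peak limits, equal peak numbers, other merging and scaling, a tag filter, DESeq2 1.42.0, the block and each replicate left out.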

Additional observations from a re-analysis of the deposited data

How the results depend on the processing

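The number of Res-missing regions was 520 with a peak required in all 9 other libraries and 810 with a score of 100 or more required there. Without 1 library each it ran from 1624 to 2180. Where that library was not a Res one, 1 peak fewer was required. H3K9ac was called in at least 1 of the 9 other libraries and 0 of 3 Res at 664 regions with a score of 100 or more and at 274 with equal peak numbers, and in at least 1 Res library at 10 and 14. With the regions defined without the first Sen library, an alternative chosen after seeing the data, the last count was 50. With 2500 bases in place of 1 kb, 15.3% of regions had a gene end nearby.

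In Res against Sen, the H3K9ac counts were 1 higher and 1 lower at a score of 100 or more, 3 lower per called base and 2 lower with a mean of at least 200 tags; without 1 library each, 3 to 10 were lower, with 10 without the first Res library, and 2 were higher in each case. Against Res_Ctrl 0 were lower at a score of 100 or more and 0 with at least 200 tags, 3 to 7 without 1 library each, and 1 to 2 were higher. Against Res_shFabp7 2 were lower per called base, 2 with at least 200 tags, 0 at a score of 100 or more, and 3 to 8 without 1 library each. Of all regions tested against Sen, Res_Ctrl and Res_shFabp7, 2682 of 9860, 1891 of 8759 and 2394 of 10002 were lower at a score of 100 or more. With at least 200 tags 2599 of 9782, 1616 of 6665 and 2079 of 8466 were lower. Without 1 library each, 2230 to 2782, 1777 to 2038 and 2158 to 2772 were lower. Per called base 2204 were lower against Sen and 2018 against Res_shFabp7. The score and tag limits left fewer regions to test, and leaving out the first Res library left more (16, 11 and 17 against Sen, Res_Ctrl and Res_shFabp7). Beyond that, the cause of these differences was not tested.

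For H3K27ac in Res_shFabp7 against Res_Ctrl, the replicate block gave 87 higher and 74 lower, tags per called base 22 and 127, a score of 100 or more 27 and 20, DESeq2 57 lower and at least 200 tags 23 lower. Without 1 library each, 8 to 68 were higher and 10 to 49 lower. Over all tested regions the block gave 502 and 939, in place of 215 and 411. Per called base these were 401 and 903, and at a score of 100 or more 166 and 258 of 13216. With DESeq2 574 of all regions were lower, and with at least 200 tags 365 of 10125. Without 1 library each, 41 to 305 of all regions were higher and 122 to 566 lower. For Res_Ctrl against Sen, at least 200 tags gave 27 higher and 48 lower and a score of 100 or more 24 and 53; without 1 library each the counts ran from 24 to 157 and from 58 to 182, the upper values without the first Sen library. There the block gave 69 and 103. Over all regions of that comparison the block gave 1682 and 1167. At least 200 tags gave 999 and 833 of 7174, and a score of 100 or more 978 and 766 of 10166. Without 1 library each, 695 to 1809 of all regions were higher and 542 to 1627 lower. In the H3K9ac comparisons the block gave 2 higher and 5 lower of 8 against Sen. In the H3K9ac comparisons and in Res_Ctrl against Sen the block shifted no count by over 1.5 times. Per called base the change of D630003M21Rik turned to -0.061 and those of Litaf to 0.16 against Sen and 0.039 against Res_shFabp7. Of 1252 alternative values of named regions, 1129 stayed on their side of the threshold, 80 fell short of it and 40 passed it. Another 3 turned sign where the main or the alternative value passed. Some of the 1129 turned sign without passing in either setting. Gpr55 did so per called base in Res_shFabp7 against Res_Ctrl (-0.0042). With the block, beside the calls given in the report, Rbpms (-0.32) and Tnfaip2 (-0.44) passed in Res_shFabp7 against Res_Ctrl and H6pd (-0.52) and a Plxna4 region (0.54) in Res_Ctrl against Sen; it changed no other call of a named region. Regions without a peak have no count, so small amounts of a mark in Res are not detectable in these lists.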
